A study of Mus musculus with 54 samples.

Results

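Gfi1 and Gfi1b, a pair of related transcriptional repressors, were followed through single bone marrow progenitors of the mouse. They were taken as the rows of the deposited count table whose name holds the symbol Gfi1 or Gfi1b exactly, which gave 2 of 27297 rows, each holding 1 symbol. The neutrophil elastase gene Elane and the carbonic anhydrase 1 gene Car1 were used beside them as readouts tied to the neutrophil and erythroid programs. Neither was confined to 1 class of cells, as given with the cell classes below. Cells were profiled with MARS-seq, a 3′-end method on plates that tags every captured mRNA with a barcode of its well and with a random molecular tag (UMI), so that each UMI counts 1 captured molecule. The series holds 54 amplification pools of 192 wells, of which 190 held a cell.

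All cells lacked lineage markers and Sca1 and carried cKit, and all mice were C57BL/6. Per the description column of the authors' well table, 16 pools held unsorted progenitors (2732 cells with at least 500 UMIs). A further 3 sets were sorted from common myeloid progenitors (CMP), gated as CD34+ with low FcgR: CD41+ cells (2 pools, 336 cells), Flt3+ Csf1r+ cells (6 pools, 1132 cells), and GFP+ MHCII+ cells of an Irf8-GFP strain (6 pools, 1116 cells). The knockout arms were Cebpa(flox/flox)Mx1-Cre (12 pools, 1384 cells) with a Cebpa(flox/flox) control (6 pools, 890 cells), and Cebpe-/- (4 pools, 559 cells) with its own control (2 pools, 250 cells). The Cebpa arms, control included, had received poly(I:C), stated for the earlier samples as 300 µg given 3 times, 3 weeks before harvest, and for the later samples without a dose. Mx1-Cre is driven by an interferon-inducible promoter and acts in several cell types. Mice were 6 to 8 weeks old, or 14 weeks and from another facility for the samples numbered 21 to 32 in the labels. The labels also assign 1 pair of samples among the later Cebpa controls to the Mx1-Cre strain. The well table gives 1 mouse identifier per group and does not say whether it names 1 animal or a mixture. Every p-value over pools below therefore measures the spread between amplification pools, which may be technical. The 54 pools lie 2 to a plate on 27 plates, and the tests count the 2 pools of a plate as separate. Both CD41+ pools come from plate 1 and both Cebpe control pools from plate 16, so group and plate cannot be told apart there.

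The sample label and the well table named the same group for 36 pools and different groups for 18, for which the ages and treatments tied to the labels are uncertain. The targeted genes followed the table. Cebpa stood at 0 to 6.80 CPM (UMIs of a gene scaled to 1000000 UMIs) in the Cebpa knockout pools against 73.8 to 152 in the control pools, and Cebpe at 0 in all 4 Cebpe knockout pools against 35.9 to 67.2 in the control pools. The table's groups were used throughout, and the labels' groups are an alternative given in the closing section. Pools held between 140748 and 854479 UMIs, and cells a median of 2646. Of the 108 empty wells, which carried a mean of 58.1 UMIs, none reached 500. They held 0 UMIs of Gfi1, 2 of Gfi1b, 13 of Elane and 17 of Car1.

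Gfi1 and Gfi1b are zinc-finger proteins that bind the same core DNA motif and silence genes through an N-terminal SNAG domain, which recruits the histone demethylase Kdm1a with its Rcor partners and histone deacetylases. Gfi1 is best known in granulocyte and lymphoid development and in stem cells, where its loss blocks neutrophil maturation. Gfi1b is best known in the erythroid and megakaryocyte lineages, which fail without it. Each protein has been reported to repress its own gene and that of the other.

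The bases upstream of the start sites are shown because both genes are reported targets of their own products and of lineage factors. Both genes had promoters in the RefSeq table of GRCm38.p6, and the 250 bases before a start site are printed on the transcribed strand, which is the minus strand for both. The search covered GATAAG (the GATA core), AATC (the core of GFI sites), CCAAT and TTGCNNAA (a C/EBP core) on both strands. Capitals mark the matches, and no 2 marked motifs overlap. The window of Gfi1b lies at chr2:28621983-28622232 and that of the upstream start site of Gfi1 at chr5:107725806-107726055.

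Gfi1b: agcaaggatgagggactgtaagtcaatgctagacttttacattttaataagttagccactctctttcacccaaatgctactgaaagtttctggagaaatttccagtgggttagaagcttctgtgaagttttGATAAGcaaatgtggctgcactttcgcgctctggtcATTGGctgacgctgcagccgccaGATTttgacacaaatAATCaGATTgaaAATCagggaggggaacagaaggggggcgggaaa

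Gfi1: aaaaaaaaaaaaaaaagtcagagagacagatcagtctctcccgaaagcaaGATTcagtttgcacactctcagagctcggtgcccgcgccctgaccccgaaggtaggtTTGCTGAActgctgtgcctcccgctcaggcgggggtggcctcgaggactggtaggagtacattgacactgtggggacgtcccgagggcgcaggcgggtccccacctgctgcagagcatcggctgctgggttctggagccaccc

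The Gfi1b window held 1 GATAAG match 119 to 114 bases upstream of the start. It also held 4 AATC matches between 60 and 30 bases upstream, and a CCAAT match on the other strand at 83 to 79. The Gfi1 window held a TTGCNNAA match, TTGCTGAA, at 143 to 136 bases upstream and 1 AATC match on the other strand at 200 to 197. None of the 4 motifs was found in the window of a second Gfi1 start site. Across 32817 promoter windows of the same length, 6.55% held GATAAG, 9.57% TTGCNNAA, 33.8% CCAAT and 69.0% AATC, while 7.04% held AATC 4 times or more. The GC content was 44.4% for Gfi1b and 59.2% for Gfi1, against a median of 52.4% over all windows. A match describes letters only and no binding was measured here. In the GENCODE annotation a noncoding transcript, A430072P03Rik, overlaps Gfi1 on the opposite strand. The sources used here do not state whether the counting used strand, so its reads could not be separated from those of Gfi1. No stretch of 30 bases was shared between transcripts of the pair.

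Gfi1 was present at a low level in most groups and nearly missing from 2 of them. In unsorted progenitors 421 Gfi1 UMIs were counted, a level of 42.6 CPM with a 95% exact Poisson interval of 38.6 to 46.9. The interval, like the others below, covers counting error only. The 16 unsorted pools ranged from 28.8 to 55.7 CPM with a median of 44.3. The 4 Cebpe knockout pools had the highest group level, with 54.5, 71.7, 89.9 and 63.6 CPM (sum 71.3). The 2 Cebpe control pools had 35.3 and 41.0 CPM, below each Cebpe knockout pool.

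The Cebpa control pools had 13.4, 28.9, 34.7, 24.7, 47.3 and 16.5 CPM of Gfi1 (sum 27.8). The Irf8-GFP+ MHCII+ pools had 12.1, 15.9, 50.6, 25.1, 16.0 and 20.0 CPM (sum 22.1), 1 pool standing above the other 5. The Flt3+ Csf1r+ pools were closer together, at 23.6, 23.9, 21.5, 21.0, 21.3 and 18.9 CPM (sum 21.8). These 3 groups overlapped each other.

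In the CD41+ gate a single Gfi1 UMI was counted among 730318, so the pools stood at 0 and 2.81 CPM (sum 1.37, interval 0.03 to 7.63). In the Cebpa knockout 3 Gfi1 UMIs were counted among 4213446, with 10 of 12 pools at 0 and the others at 6.80 and 2.25 CPM (sum 0.712, interval 0.147 to 2.08). Ordered by group level, the gap between the Flt3+ Csf1r+ and CD41+ pools was the only one between neighbours at which the pools did not overlap.

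Gfi1b was highest in the Cebpa arms. The 12 Cebpa knockout pools ran from 337 to 566 CPM (median 445, sum 458), overlapping the Cebpa control pools at 328 to 401 (median 368, sum 371). The CD41+ pools had 320 and 315 CPM (sum 318, interval 278 to 361) and the Cebpe control pools 291 and 326 (sum 308). The unsorted pools ran from 199 to 349 CPM, with a median of 240 and a sum of 254.

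Below these, the Cebpe knockout pools had 68.1, 123, 82.1 and 68.4 CPM of Gfi1b (sum 83.4), with no overlap to either the unsorted pools above or the gates below. The Irf8-GFP+ MHCII+ pools ran from 12.7 to 32.3 CPM (sum 23.8) and the Flt3+ Csf1r+ pools from 1.89 to 19.5 (sum 10.0), overlapping each other. Pools of the Cebpa controls and the CD41+ gate also did not overlap, while CD41+, Cebpe control and unsorted pools did.

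**Figure D1:**
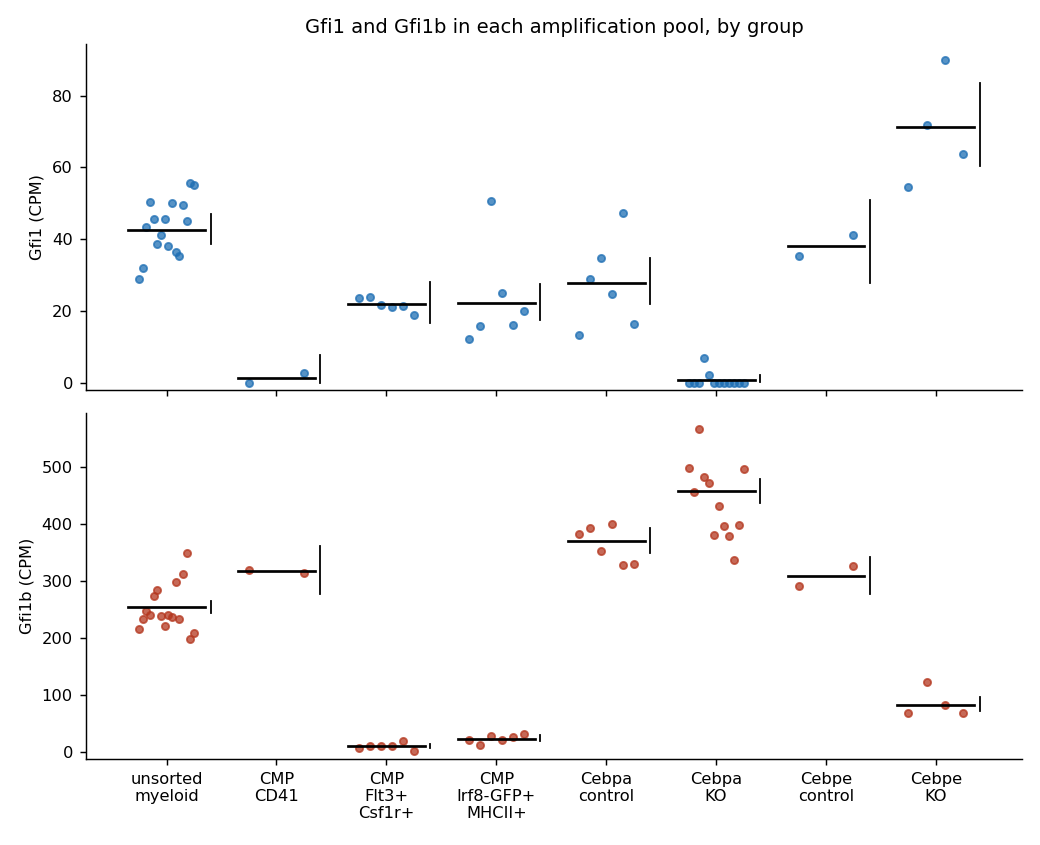
Level of Gfi1 (top) and Gfi1b (bottom) in each amplification pool, by group, in CPM of the UMIs of cells with at least 500 UMIs. Points are pools, the horizontal line is the level of the summed pools and the vertical line beside it its 95% exact Poisson interval, for counting error only. Gfi1 stands at or near 0 in the CD41+ gate (2 pools) and the Cebpa knockout (12 pools), where Gfi1b is at or above the unsorted level of 254 CPM, and Gfi1b is lowest in the Flt3+ Csf1r+ gate at 10.0 CPM.

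Single cells held few molecules of either gene. At most 6 Gfi1 UMIs and 11 Gfi1b UMIs were found in 1 unsorted cell. A Gfi1 UMI was found in 10.8% of unsorted cells and a Gfi1b UMI in 38.8%. Because depth differed between groups, each cell was also thinned to 1000 UMIs, leaving out 315 shallower cells of the 2732 unsorted, 47 of the CD41+, 85 of the Flt3+ Csf1r+, 48 of the Irf8-GFP+ MHCII+, 109 of the Cebpa control, 315 of the Cebpa knockout, 27 of the Cebpe control and 50 of the Cebpe knockout cells. On that scale Gfi1 was detected in 5.30% of unsorted, 5.89% of Cebpe knockout, 3.59% of Cebpe control, 3.46% of Cebpa control and 0.187% of Cebpa knockout cells. Without thinning the last 4 shares were 17.5%, 10.8%, 6.40% and 0.217%. For Gfi1b the thinned share was 17.0% in unsorted cells, 23.2% in CD41+ cells and 31.1% in Cebpa knockout cells, against 38.8%, 39.9% and 51.8% without thinning.

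In the CD41+ gate, sorted on the megakaryocyte integrin CD41, Gfi1 was nearly undetected while Gfi1b did not pass the test. The 1 Gfi1 UMI against 421 in unsorted cells gave a log2 ratio of CPM of -4.96 with a counting interval of -10.3 to -2.47. The pool fit gave a log2 ratio of -4.68 ± 0.71 (SE; edgeR quasi-likelihood test, adjusted p = 2.09e-06), in a comparison where 40.5% of genes tested passed, 18.0% as higher and 22.5% as lower. That fitted size rests on 1 UMI: it was -7.62 without CD41+ replicate 2, which held the UMI, and -3.71 without replicate 1. Gfi1b was 0.42 ± 0.20 higher on the log2 scale and did not pass the test (edgeR adjusted p = 0.084). Within sequencing batch SB17, the only one that holds both groups, it was 0.51 ± 0.15 higher and passed (edgeR adjusted p = 0.0158), and the Gfi1 ratio there was -4.50. In sums over pools, a change in the share of a cell type and a change in RNA per cell cannot be told apart. Beside this result, the 15 neutrophil markers summed to between 0.164% and 0.189% of UMIs in the CD41+ pools against 1.38% to 2.65% in unsorted pools, with Fcnb, Lcn2, Ltf, S100a8 and S100a9 at 0. The 15 erythroid markers summed to between 0.105% and 0.162% against 0.871% to 1.34%, all with a UMI. The part of these shifts in the result was not tested.

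The gene lists here and in the comparisons below were chosen with earlier results of these data known. Their call rates beside those of all genes are therefore descriptions and not tests. Of 17 corepressor partners tested in the CD41+ gate, 4 were higher and 2 lower (35.3% called beside 40.5% of all genes). Their median log2 ratio was -0.05 beside -0.15 over all genes. The corepressor gene Rcor2 rose from 4.56 to 86.3 CPM (log2 ratio 4.27), the 2 CD41+ pools at 84.4 and 88.0 lying above all unsorted pools (0 to 11.1). Its relative Rcor1 fell from 102 to 17.8 CPM (-2.40), and the row that joins the demethylase Kdm1a with mKIAA0601 fell from 112 to 38.3 CPM (-1.43). Hdac1, a histone deacetylase, was higher by 1.05 and Gse1, a component of Kdm1a complexes, by 1.64, and the row joining the methyltransferase Prmt1 with Mrmt1 by 1.35. Values of joined rows cannot be given to 1 of their genes. Of 14 reported repression targets 3 rose and 5 fell (57.1% called, median -0.88). The rises included the homeobox gene Meis1 (4.07) and the survival gene Bcl2l1 (2.49), and the falls the monocyte factors Irf8 (-3.29) and Klf4 (-3.16). Of 21 lineage transcription factors (57.1% called) 6 rose, led by Gata2 (2.40) and Nfe2 (1.76), and 6 fell, led by the erythroid factor Klf1 (-3.90), Nfia (-3.54) and Cebpe (-3.35).

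In the gate sorted for the receptors Flt3 and Csf1r, found on monocyte and dendritic progenitors, both members were lower than in unsorted cells. Gfi1b fell by 4.54 ± 0.22 on the log2 scale (edgeR adjusted p = 2.97e-19) and Gfi1 by 0.88 ± 0.22 (edgeR adjusted p = 0.000964), where 53.3% of genes tested passed, 25.8% as higher and 27.5% as lower. No Flt3+ Csf1r+ pool exceeded 23.9 CPM of Gfi1 and no unsorted pool was below 28.8. In the 2 Flt3+ Csf1r+ pools on which label and table concur, the Gfi1 ratio was -0.76 and did not pass (edgeR adjusted p = 0.086). This gate shares no sequencing batch with the unsorted pools, so batch and gate cannot be told apart. The erythroid markers summed to 0.00938% to 0.0164% of UMIs in its pools against 0.871% to 1.34%, with markers at 0 that included Ermap and Cldn13. The neutrophil markers summed to 1.69% to 2.30%, within the unsorted range of 1.38% to 2.65%, with Fcnb, Ltf, Ngp and S100a9 at 0. Elane, which is on that list, nevertheless differed by cell. It exceeded 1% of UMIs in 3 cells of the gate (0.265%) against 424 unsorted cells (15.5%). No Elane UMI was found in 49.5% of the gate's cells against 33.9% of unsorted cells. The part of the erythroid and Elane shifts in the Gfi1 and Gfi1b results was not tested.

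In this gate 4 of 17 corepressor partners were higher and 4 lower (47.1% called beside 53.3% of all genes, median 0.12 beside -0.04 for all genes). Phf21a, which reads unmodified histone H3 in the Kdm1a complex, rose by 1.16, whereas Rcor1 fell by 0.96 and the Kdm1a row by 0.86, all with overlapping pools. Of 14 reported targets 5 rose and 1, Id2, fell (42.9% called). Among the risers Csf1r (2.17) was used for the sort, and Irf8 rose by 2.48 and the cell cycle inhibitor Cdkn1a by 1.69. Of 21 lineage factors (85.7% called) 8 rose, led by Tcf4 (1.36), and 10 fell, led by the erythroid factors Klf1 (-7.54) and Gata1 (-5.84).

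The Irf8-GFP+ MHCII+ gate, sorted for a reporter of the monocyte and dendritic factor Irf8 and for antigen-presenting surface protein, also had less of both members. Gfi1b fell by 3.40 ± 0.18 (edgeR adjusted p = 1.94e-18) and Gfi1 by 0.92 ± 0.21 (edgeR adjusted p = 0.00028), where 56.1% of genes passed, 28.3% as higher and 27.8% as lower. The fall of Gfi1 was not uniform, since the highest of the 6 pools (50.6 CPM) lay inside the unsorted range; without that pool the ratio was -1.28. This gate also shares no batch with the unsorted pools, and the effects cannot be told apart. Its pools held 0.0167% to 0.0429% of UMIs from erythroid markers (markers at 0 included Ermap, Aqp1 and Rhd) and 0.840% to 1.24% from neutrophil markers (Fcnb and S100a8 at 0), both below every unsorted pool. Their part in the result was not tested.

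Here 4 of 17 corepressor partners passed (23.5% beside 56.1% of all genes): 1 rose, the deacetylase Hdac3 (1.17, pools 43.2 to 83.0 CPM against 15.3 to 38.9), and 3 fell, Rcor1 (-1.24), Gse1 (-0.67) and Zmym2 (-1.07). Reported targets were mostly higher: 9 of 14 rose and 1 fell (71.4% called), with a median of 1.24 beside 0.00 for all genes. Id2, an inhibitor of helix-loop-helix factors, rose from 23.9 to 808 CPM (5.06), and Cdkn1a from 25.1 to 78.6 (1.64). Irf8 (1.80) marks the sort. The single fall was Bax (-0.37). The dendritic factor Batf3 (5.60) led the 7 of 21 lineage factors that rose (81.0% called), and Klf1 (-8.24) and Gata1 (-7.89) the 10 that fell.

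In the Cebpa knockout, which lacks the factor that starts granulocyte and monocyte commitment, Gfi1 was close to undetected while Gfi1b did not pass the test. The 3 Gfi1 UMIs against 80 in the control gave a log2 ratio of CPM of -5.29 with a counting interval of -7.60 to -3.69. Gfi1 was too rare for the filter on low counts and was not in the main fit. Without the filter, the edgeR ratio was -4.83 (adjusted p = 1.58e-08). The gap stood within both batches: 2 UMIs in the knockout against a control level of 22.2 CPM in SB23, and 1 UMI against 30.2 CPM in SB29. Gfi1b was 0.24 ± 0.11 higher (edgeR adjusted p = 0.118; 18.2% of genes tested passed, 9.59% as higher and 8.58% as lower), at 503 against 388 CPM in SB23 and 431 against 363 in SB29.

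The Cebpa knockout had no cell with Elane above 1% of its UMIs, against 139 of 890 control cells. Its 15 neutrophil markers summed to 0.0132% to 0.134% of UMIs per pool against 1.07% to 2.00% in the control, with Ltf and Ngp at 0 in both. Erythroid markers summed to 1.47% to 1.78% against 0.952% to 1.52%. In the Elane classes that both arms held, the Gfi1 level was 0.287 CPM (0.00727 to 1.60) in 1167 knockout cells and 5.98 CPM (2.19 to 13.0) in 361 control cells without an Elane UMI. Up to 0.1% Elane it was 1.55 CPM (0.0393 to 8.65) against 2.45 (0.505 to 7.16), and from there to 1% it was 11.8 CPM (0.299 to 65.7) in 70 cells against 42.2 (21.8 to 73.8) in 134. The knockout held 1 Gfi1 UMI in each of these 3 classes, and the intervals overlap in the last 2. These differences within classes were not tested.

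Of 12 corepressor partners tested in this comparison 3 were higher, Hdac2 (0.58), Gse1 (0.80) and Zmym3 (0.89), and the other 9 did not pass (25.0% called beside 18.2% of all genes). Of 6 reported targets tested 4 passed (66.7%): 2 rose, among them the joined row of Rag1 and B230118H07Rik (1.17), and 2 fell, Irf8 (from 136 to 9.49 CPM, -3.87) and Csf1r (-2.10). Of 19 lineage factors (21.1% called) 1 rose, Tal1 (0.64), and 3 fell, the targeted Cebpa, Cebpe (from 64.3 to 1.19 CPM, -5.63) and Lyl1 (-0.38).

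In the Cebpe knockout, which lacks a factor of late granulocyte maturation, the pair moved in opposite directions. Gfi1 was higher by 1.00 ± 0.28 on the log2 scale (edgeR adjusted p = 0.00976) and Gfi1b fell by 1.75 ± 0.19 (edgeR adjusted p = 6.09e-08), where 23.4% of genes tested passed, 13.5% as higher and 9.85% as lower. All pools of both groups belong to batch SB23. Scaled by library size in place of TMM, the median of all genes moved from -0.01 to -0.14, and 43.2% of calls were higher in place of 57.8%. The 2 members kept their direction. The rise of Gfi1 depended on 1 of the 2 control pools and on the method. It did not pass without control replicate 1 (ratio 0.88), nor with DESeq2 (ratio 1.01, DESeq2 adjusted p = 0.0701). Beside both changes, the neutrophil markers summed to 5.41% to 6.04% of UMIs in the knockout pools against 1.46% to 1.63% (Ltf and Ngp at 0 in both groups and Cebpe at 0 in the knockout). The erythroid markers summed to 0.316% to 0.467% against 1.10% to 1.31%.

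Of 14 corepressor partners tested here 1 passed (7.14% beside 23.4% of all genes), Hdac2, which fell from 161 to 81.5 CPM (-0.87). Of 13 reported targets 6 rose and 3 fell (69.2% called, median 0.46 beside -0.01). Id1, an inhibitor of helix-loop-helix factors, rose from 5.08 to 55.0 CPM (3.48), the growth factor Csf1 from 3.39 to 23.8 (2.83) and Id2 from 22.0 to 62.9 (1.66), all with pools that did not overlap. The falls included Tgfbr3 (-1.84) and Myc (-0.58). Of 19 lineage factors (57.9% called) 3 rose, led by Cebpa (2.74), and 8 fell, led by the targeted Cebpe, then Klf1 (-1.73) and Zfpm1 (-1.65).

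Inside cells rich in Elane the Gfi1 difference ran the other way. This class, cells with Elane above 1% of their UMIs, was chosen after values were seen and is a range of a continuous share, not a cell type. It held 41 control cells (16.4%) and 347 knockout cells (62.1%, pools 59.5% to 64.7%). In these cells Gfi1 stood at 196 and 222 CPM in the control pools and at 63.0, 105, 121 and 102 CPM in the knockout pools, which did not overlap. The group levels were 210 CPM (143 to 296) and 101 CPM (84.4 to 119). The exact two-sided permutation test over pools gave p = 0.133, the smallest that 4 pools against 2 can give. The control pools share plate 16 and the knockout pools lie on plates 13 and 15. Unsorted cells of the same class stood at 197 CPM and Cebpa control cells at 162. Choosing cells by Mpo, Prtn3 and Ctsg together above 5% of UMIs gave 108 CPM in 169 knockout cells, and 294 CPM in 8 control cells that held 6 Gfi1 UMIs. In the cells above 1% Elane, Elane itself was 1.98% of UMIs in the knockout and 1.48% in the control, and in those chosen by the other 3 genes it was 2.43% and 2.17%. Gfi1b in Elane-rich cells was 23.7 CPM in the knockout, 98.3 in the control and 37.9 in unsorted cells.

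**Figure D2:**
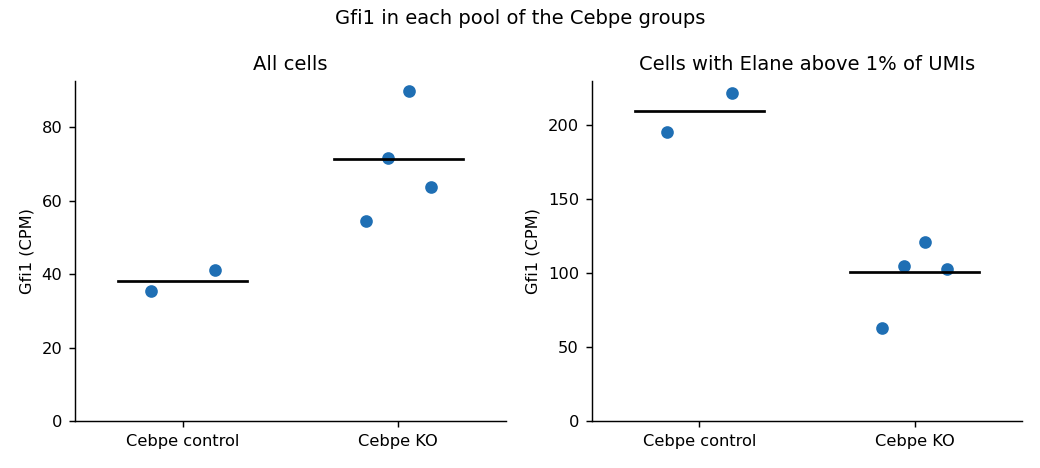
Level of Gfi1 (CPM) per pool in the Cebpe control (2 pools), the Cebpe knockout (4 pools), over all cells (left) and over cells with Elane above 1% of their UMIs (right), with a line at the level of the summed pools. Knockout pools lie above the control pools over all cells (54.5 to 89.9 against 35.3 and 41.0 CPM) and below them among Elane-rich cells (63.0 to 121 against 196 and 222 CPM).

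In unsorted cells the 2 genes marked opposite ends of the Elane and Car1 range. Grouped by Elane share, the Gfi1 level was 6.87 CPM in 927 cells without an Elane UMI, 5.92 CPM up to 0.1%, 58.6 CPM up to 1% and 197 CPM in 424 cells above 1%. Gfi1b ran the other way, at 333, 366, 64.0 and 37.9 CPM. Grouped by Car1 share, Gfi1 was 92.6 CPM in 767 cells without a Car1 UMI, 86.7 up to 0.1%, 5.15 up to 1% and 4.73 above it, where 2 UMIs were counted. Gfi1b was 70.0, 116, 379 and 404 CPM.

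The relation was tested over the 16 unsorted pools, which lie on plates 2 to 9, in cells thinned to 1000 UMIs. This left 2417 cells, 128 with a Gfi1 UMI and 411 with a Gfi1b UMI. Cells with a Gfi1 UMI held 1.36% ± 0.386 Elane UMIs (mean and SD over n = 16 pools) against 0.375% ± 0.0888 in cells without, higher in 16 of 16 pools. Their Car1 share was 0.051% against 0.281%, lower in 16 of 16. Cells with a Gfi1b UMI held 0.123% Elane against 0.489% (lower in 16 of 16) and 0.485% Car1 against 0.227% (higher in 16 of 16). Each of these 4 exact two-sided permutation tests, by sign flips of pool differences, gave p = 3.05e-05, the smallest that 16 pools can give (adjusted 3.81e-05 over 5 tests).

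**Figure D3:**
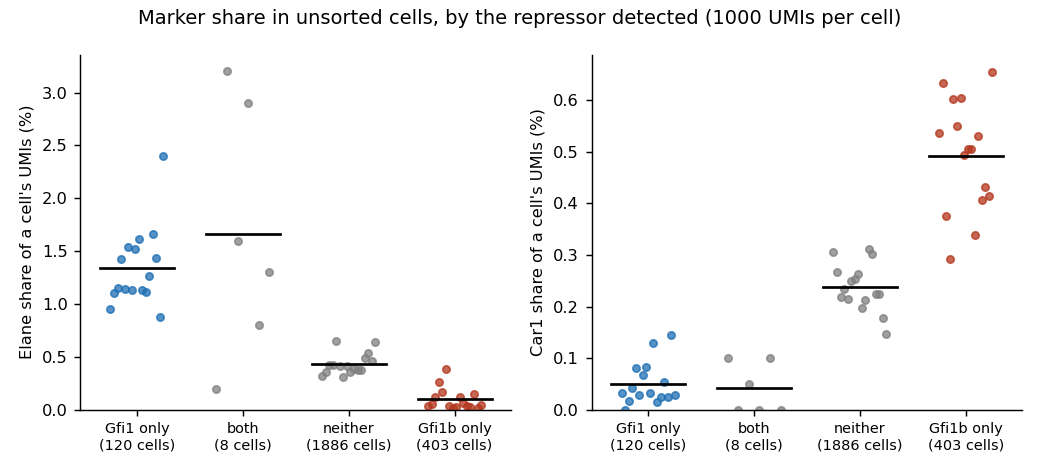
Elane share (left) and Car1 share (right), in percent of a cell's UMIs, of unsorted cells thinned to 1000 UMIs and split by which of the 2 genes had a UMI. Points are pool means and lines the mean over pools: Elane is 1.34% in 120 cells with Gfi1 only and 0.097% in 403 cells with Gfi1b only, and Car1 is 0.05% and 0.492%. The 8 cells with both come from 6 pools.

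Detection of each gene was also read by the number of marker UMIs. Among thinned cells with 0, 1 to 2, 3 to 9 and at least 10 Elane UMIs, a Gfi1 UMI was found in 0.982%, 2.03%, 8.40% and 17.6%, and a Gfi1b UMI in 25.2%, 17.7%, 3.92% and 4.29%. Over the same bins of Car1, Gfi1 was found in 8.63%, 6.24%, 0.447% and 1.12% and Gfi1b in 6.82%, 15.8%, 29.1% and 35.4%.

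Cells with a Gfi1 UMI less often held a Gfi1b UMI than cells without one. Over pools, 6.19% of cells with a Gfi1 UMI also held a Gfi1b UMI, against 17.6% of cells without (difference -11.4 ± 8.76 percentage points, SD, n = 16 pools, lower in 14 of 16, exact two-sided permutation p = 0.000305, adjusted 0.000305). Without thinning, 55 of 2732 cells held both, where independence within each depth decile gives 124 (observed over expected 0.445). Once depth and the expression cluster of the cell were both held, independence gave 54.2, and the observed 55 was 1.02 times that number. Holding only the detection of Elane and Car1 with depth gave 102. In thinned cells 8 held both, against 21.6 within pools and 7.28 within clusters. The clusters were built without the 2 genes. These expected numbers are descriptions with no test.

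Of the 55 cells with both, 26 were neutrophil-like, 15 monocyte-like, 12 erythroid-like and 2 stem or multipotent-like. The 12 erythroid-like cells held 13 Gfi1 UMIs, with a single one in 11 cells, and whether free RNA supplied these was not tested. None of the 55 cells held 2 or more UMIs of both genes, and 26 held 1 of each. Elane was detected in 51 of them and Car1 in 40. In the other groups, cells with both against the number expected within depth deciles were 12 against 28.5 in the Cebpa control, 11 against 21.2 in the Cebpe knockout and 10 against 16.5 in its control. They were 0 against 1.77 in the Flt3+ Csf1r+ gate, 5 against 4.42 in the Irf8-GFP+ MHCII+ gate, 1 against 2.01 in the Cebpa knockout and 1 against 0.529 in the CD41+ gate.

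Cells were next grouped by expression, without the 2 genes, into 19 clusters, of which 15 were named from marker lists. Neutrophil-like cells, in 2 clusters, had the highest Gfi1 level, at 242 CPM (214 to 272) in 343 cells, with pools from 132 to 328. They held 64.6% of all Gfi1 UMIs. Monocyte-like cells had 51.4 CPM in 585 cells (24.6 to 87.8 over pools) and held 24.2%. Stem or multipotent-like cells had 50.7 CPM (31.4 to 77.5) in 204 cells and held 5.0%. That name is the title of a marker list and rests on Flt3, Sox4 and Cd34, with 2 monocyte markers also among the leading genes. All cells were sorted as lacking Sca1, and the name does not identify stem cells. The 878 erythroid-like cells, at 3.0 CPM, held 3.6%. No Gfi1 UMI was found in 29 dendritic-like or 28 lymphoid or NK-like cells. This allows a share of cells with a UMI of up to 10.3% and 10.7%. Elane was not confined to neutrophil-like cells, where it stood at 16926 CPM. Monocyte-like cells had 6057 CPM of Elane and held 35.4% of its UMIs.

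For Gfi1b, erythroid-like cells had 399 CPM (310 to 500 over pools) and held 80.6% of its UMIs. An unnamed cluster of 152 cells led by Apoe, Gata2 and Car1 had 400 CPM, and another of 206 cells led by Apoe and Gata2 had 346 CPM. In the same order, these clusters held 0 and 1 Gfi1 UMI, at 0 CPM (0 to 10.8) and 3.09 CPM (0.0783 to 17.2). Their Car1 levels were 7485 and 5328 CPM, against 5239 in erythroid-like cells. Megakaryocyte-like cells had 223 CPM of Gfi1b and basophil or mast-like cells 151 CPM, next to stem or multipotent-like cells at 84.5. The lowest of the larger classes were neutrophil-like cells at 39.1 CPM and monocyte-like cells at 39.3. Of single clusters, 1 erythroid-like cluster had 65.4% of its cells from 1 plate, 1 unnamed cluster of 41 cells had 90.2%, and 1 of the neutrophil-like clusters was also led by the eosinophil genes Prg2 and Epx.

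**Figure D4:**
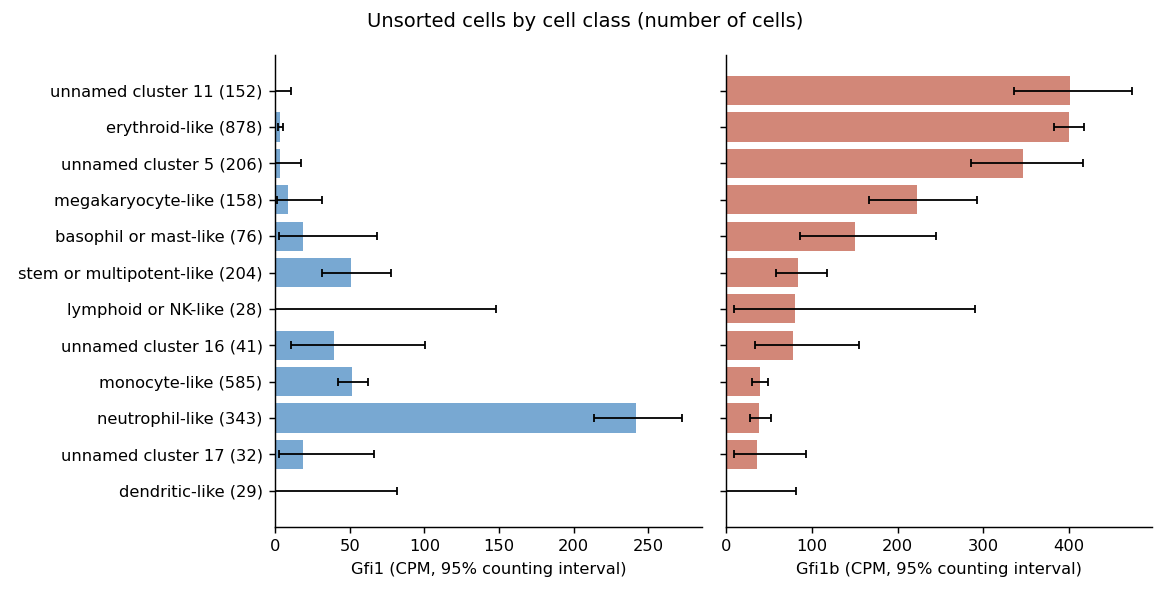
Level of Gfi1 and Gfi1b (bars, CPM, with 95% exact Poisson intervals covering counting error only) in each class of unsorted cells, the number of cells in parentheses. Gfi1 is highest in neutrophil-like cells (242 CPM) and Gfi1b in erythroid-like cells and an unnamed Apoe and Gata2 cluster (399 and 400 CPM).

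A Gfi1 UMI was found in 46.9% of neutrophil-like cells (median 3028 UMIs) and 1.59% of erythroid-like cells (median 5425.5), and a Gfi1b UMI in 11.7% and 80.9%. For scale, each gene's level was computed as if all Elane or Car1 UMIs of a class were free RNA carried over from 1 other class. That assumption was not tested, and the values below are a description only. Carried over with Elane at the ratio of neutrophil-like cells, Gfi1 would stand at 2.6 CPM in erythroid-like cells, where 3.0 was measured from 15 UMIs. Whether free RNA or the cells' own expression supplied these UMIs was not tested. The empty wells held 0 UMIs of Gfi1, but their 6279 UMIs in all were too few to show a gene this rare. The same ratio gave 4.7 CPM in stem or multipotent-like cells, where 50.7 was measured. In monocyte-like cells it gave 86.5 CPM where 51.4 was measured, and in the unnamed cluster of 41 cells 131 CPM where 39.3 was measured. For Gfi1b at the erythroid ratio to Car1, neutrophil-like cells would hold 20.5 CPM and 39.1 was measured, and stem or multipotent-like cells 21.5 where 84.5 was measured. Megakaryocyte-like cells would hold 43.5 CPM where 223 was measured, and the unnamed cluster of 152 cells 570 CPM where 400 was measured. The computed values thus lay above the measured ones in some classes and below them in others, so they set no scale for expression.

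Surface protein, a readout taken at the sort and separate from the RNA, divided the same cells. Index-sort intensities were available for 2716 unsorted cells. The 236 with a Gfi1 but no Gfi1b UMI had a median FcgR intensity of 1310 and the 1001 with a Gfi1b but no Gfi1 UMI a median of 26. The 1425 cells with neither had 458, and the 54 with both had 1344. Median CD34 intensities were 252, 48, 206 and 223.5 in the same order. Among thinned cells split into quartiles of FcgR intensity within each pool, a Gfi1 UMI was found in 0.659%, 1.01%, 9.29% and 9.83% from lowest to highest, and a Gfi1b UMI in 32.1%, 23.5%, 6.93% and 5.67%. By quartiles of CD34, Gfi1 was found in 0.824%, 3.18%, 9.11% and 7.78%, and Gfi1b in 31.5%, 23.6%, 6.58% and 6.46%. High FcgR is the surface mark of granulocyte and monocyte progenitors, and low CD34 with low FcgR that of erythroid and megakaryocyte progenitors.

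**Figure D5:**
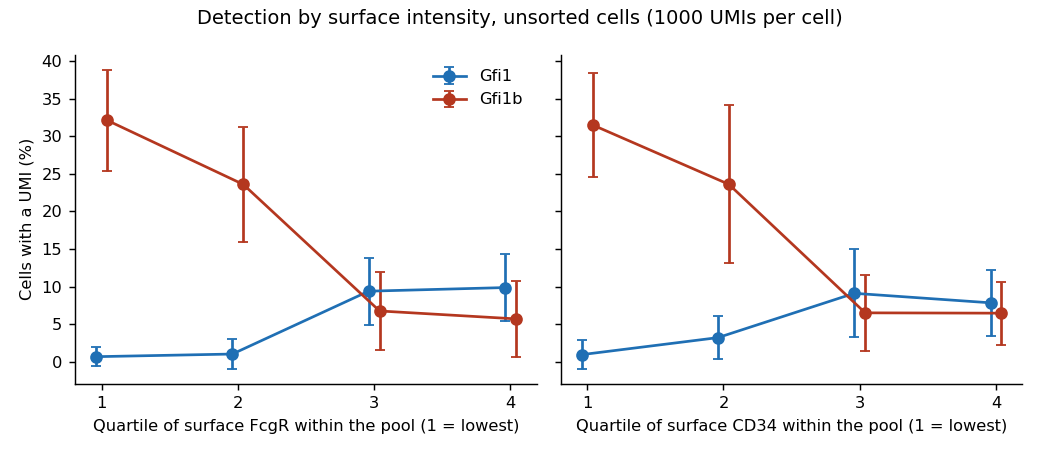
Share of thinned unsorted cells with a Gfi1 or Gfi1b UMI (percent, mean over 16 pools with SD bars) by quartile of surface FcgR (left) and CD34 (right) intensity within each pool. From the lowest to the highest FcgR quartile the pool mean goes from 0.683% to 9.87% for Gfi1 and from 32.1% to 5.71% for Gfi1b.

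The genes whose pattern was most like that of each member were ranked within cells and over pools. In thinned unsorted cells, the mean share of Fcnb was 7.42 times higher in cells with a Gfi1 UMI than in cells without, followed by Pglyrp1 (6.63), Chd7 (6.34), Dmkn (5.69), Tbc1d2 (5.67) and Jdp2 (5.50). Of these, Fcnb and Pglyrp1 are neutrophil granule genes. In 11 thinning draws they were among the first 6 in 10 and 9 draws, and the other 4 in 1 to 4 draws. Of 2289 genes ranked, Elane was at 21 and Car1 was last. For Gfi1b the genes were the globin Hba-a2 (3.03), Prss50 (3.03), Crip2 (2.81), the blood group gene Rhd (2.66), Hpn (2.60) and Ctse (2.59). Hba-a2 has near-identical copies, so its value is uncertain, and it was among the first 6 in 9 of 11 draws against 2 or 3 draws for the others. Of 2342 genes ranked for Gfi1b, Car1 was at 36 and Elane at 2339.

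Across the 54 pools, which share groups, batches and depth, the 6 genes closest to Gfi1 by Pearson correlation of log2(CPM + 10) were Alas1 (0.94), Elane (0.92), Pglyrp1 (0.92), Prtn3 (0.92), Calr (0.91) and Lbp (0.91). Those closest to Gfi1b were Hemgn (0.98), Sdsl (0.97), Vamp5 (0.97), Aqp1 (0.97), Zfpm1 (0.97) and Samd14 (0.96). The pools fall into the 8 groups, so these values describe mainly differences between groups. Over the 16 unsorted pools alone, Gfi1 had a correlation of 0.81 with Elane and -0.65 with Car1. Gfi1b had 0.35 with Car1 and 0.06 with Elane, and Gfi1 with Gfi1b -0.05.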

How the data were processed

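The deposited table of the authors holds UMI counts per gene row and well, used as raw counts, and the authors' well table holds the pool, plate, batch and description of each well and, as deposited, index-sort fluorescence intensity for CD34 and FcgR. The tool bcl2fastq 2.15.0.4 and the build mm9 are named per the submitters' processing notes; aligner and counting steps: not given in the sources used here. Coordinates come from the RefSeq promoter table of GRCm38.p6 and are not those of the counts. Of 27297 rows 2109 join several symbols.

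Cells with at least 500 UMIs were kept (8399 of 10260). Wells were sorted to hold 1 cell, so no doublet caller was run. All pools use the same 192 cell barcodes, and 0 wells shared batch, pool and cell barcode. Between any 2 pools the chi-square per degree of freedom was at least 1.35, and each pool was kept as separate.

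UMIs were summed per pool and fitted over all genes with edgeR 4.0.16 in R 4.3.3 (quasi-likelihood test, TMM, filterByExpr, Benjamini-Hochberg adjusted p under 0.05). The 4 groups without a knockout were fitted together, and each knockout with its control only. On simulated counts, 37.5%, 78.5%, 84.2%, 87.0% and 58.5% of 2-fold changes were recovered for the CD41, Flt3, Irf8, Cebpa and Cebpe comparisons. Of 4-fold changes 80.2%, 100%, 98.0%, 98.8% and 91.4% were recovered. False calls made up 6.61%, 1.80%, 4.35%, 5.17% and 6.04% of calls in the same order. The simulation changed far fewer genes than passed in the real comparisons, so these rates may not hold for them. CPM are UMIs of the gene scaled to 1000000 UMIs, without TMM. Depth, between 140748 and 854479 UMIs per pool, and the counts themselves set the precision: intervals are 95% exact Poisson or, for a share of cells, the limit that 3 counts allow.

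Unsorted cells were clustered with leidenalg 0.10.2 on 600 variable genes, without Gfi1 and Gfi1b, with 25 components, 15 neighbours and resolution 1.5. This resolution was chosen after clusters at 1.0 joined basophil and megakaryocyte markers. A cluster was named from 3 or more markers among its 50 leading genes, and left unnamed where another list had as many among its first 10. Named genes were Gfi1, Gfi1b, Elane, Car1, list members that passed where at most 6 did (otherwise the 3 largest each way), the 6 genes most like each member, and Cebpa and Cebpe; some of these are not reported here. The members and lists were chosen with earlier results of these data known. Alternatives were DESeq2 1.42.0, other filters, cell minimums, thinning depths, groupings and scalings, single batches, plates summed and leaving out pools.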

Additional observations from a re-analysis of the deposited data

Results flagged for a closer look

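The Gfi1 level of the Irf8-GFP+ MHCII+ gate had 1 pool far from the others. Replicate 3 stood at 50.6 CPM, and the gap to its nearest neighbour took 0.664 of the range of the 6 pools. Without it the log2 ratio of the gate to unsorted cells was -1.28 in place of -0.92. Of 8 sets of pools checked, 1 was marked, where chance marks about 1 in 20.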

How the results depend on the processing

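No paired analysis was possible because the replicate numbers only follow the order of the pools and pair nothing. Of 122 recomputed results of the 2 members, 114 were unchanged, as were all 75 of the unsorted-cell tests. Unchanged meant the same direction and side of the threshold. For Gfi1 in the Cebpa comparison, which had no main test, it meant a ratio inside the counting interval. Of the levels 55 of 64 stayed close, and of the counts of genes 58 of 67. Most others came from grouping by the sample labels, for which the cause was not tested. Under the labels, Cebpe stood at 0 CPM in both Cebpe control pools and at 2.09, 0, 53.5 and 70.3 CPM in the Cebpe knockout pools. There the Cebpe ratios reversed to -2.83 for Gfi1 and 2.48 for Gfi1b, the Flt3 ratio of Gfi1b was -0.47 and the Cebpa ratio of Gfi1 -1.86 (edgeR adjusted p = 0.174). Gfi1 levels became 16.7 CPM (Flt3+ Csf1r+), 13.4 (Cebpa knockout), 76.9 (Cebpe control) and 11.0 (Cebpe knockout). Gfi1b levels became 136 (Flt3+ Csf1r+), 282 (Cebpa control), 336 (Cebpa knockout), 75.3 (Cebpe control) and 435 (Cebpe knockout). Genes called fell to 2595 for Flt3 and 68 for Cebpa.

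The Flt3 ratio of Gfi1 was -0.76 in pools where label and table concur. The CD41 ratio of Gfi1b was 0.51 within SB17. With DESeq2 the Cebpe ratio of Gfi1 was 1.01 and genes called 1003. Cebpa genes called were 463 within SB29, which are also the pools where label and table concur, and 447 with plates summed. Leaving out 1 pool gave 1932 to 2180 (CD41), 752 to 1363 (Cebpa) and 908 (without control replicate 2) to 1652 (Cebpe) genes called, and Cebpe ratios of Gfi1 from 0.87 to 1.14. With all pools the counts were 3532, 1086 and 1721. With an arm of 1 pool, that pool is taken to vary like the others. Without TMM scaling, the share of higher calls was 43.2% against 57.8% for Cebpe; against 52.8% for Cebpa it was 66.0% within SB23 and 36.1% within SB29. Neither member changed direction with the scaling. With 1 or 3 UMIs of Gfi1, depth sets the limit in the CD41+ gate and the Cebpa knockout.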
